A study of Mus musculus with 16 samples.

Results

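The genes described here are 33 genes of neutrophil granules and of marrow myeloid cells, given as a list and read from arrays of mouse intervertebral disc. Of the 33 genes, 30 were measured, each by 1 probe set, among 19505 named genes on 22206 probe sets. Olfm4, Fpr1 and Fpr2 were not analysed here. The genes were grouped by the stage of neutrophil maturation at which they are made. The azurophil granule and promyelocyte group held 6 genes, the specific granule and myelocyte group 12 with 11 measured, and the gelatinase granule and late neutrophil group 7 with 5 measured. The remaining groups were calprotectin with 2 genes, the NADPH oxidase with 3 and genes shared with monocytes with 3.

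The study asked how disc tissue responds to deletion of Sox9, a master regulator of cartilage cell identity. RNA was taken from the nucleus pulposus (NP), the gel-like disc centre, and the annulus fibrosus (AF), the fibrous ring around it, with caudal and lumbar discs pooled within each of 8 female mice of 3 to 4 months. The 4 control mice (CTR) were Sox9fl/fl, and the 4 conditional knockout mice (cKO) were AcanCreERT2Sox9fl/fl, so all mice carried the floxed Sox9 alleles. In the cKO mice the tamoxifen-inducible Cre is driven by Acan, the aggrecan gene, and therefore acts in aggrecan-expressing cells. The labels name tamoxifen on 2 consecutive days for the cKO mice only, so the drug and the genotype cannot be told apart here, and discs were collected on day 5 from the first dose. Each tissue gave 4 arrays per genotype, named AF CTR, AF cKO, NP CTR and NP cKO.

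A neutrophil is built in the bone marrow, and its granules are filled in order. Promyelocytes make the proteases and peroxidase of azurophil granules, myelocytes make lactoferrin and other proteins of specific granules, and later cells make gelatinase granules and the surface receptors of the mature cell. The order of granule proteins therefore marks how immature the cells in a sample are, and a healthy disc, which has few blood vessels, holds few of these cells. In bulk tissue, fewer cells of a type and less RNA per cell cannot be told apart.

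Values are log2 signals, in which 1 unit is a doubling, and each SE belongs to a log2 change fitted by limma. Sox9 signals lay between 15.95 and 16.79 in NP CTR, 9.55 and 10.12 in NP cKO, 16.39 and 17.45 in AF CTR, and 11.43 and 12.99 in AF cKO. The NP keratins Krt8 and Krt19 were lower in the AF of control mice, by log2 changes of -2.06 (SE 0.32, limma adjusted p = 0.000177) and -2.18 (SE 0.32, limma adjusted p = 8.33e-05), and Col1a1, the main collagen of the AF and of bone, was 8.10 (SE 0.56, limma adjusted p = 1.71e-08) higher there. Median signals per array ran from 6.66 to 6.89, and the negative control probe sets had medians from 6.14 to 6.59, so a signal near or under 6.59 cannot be separated from background. Cebpe and Padi4 lay at or under 6.59 on all 16 arrays. The genes at or under that level on at least 13 of the 16 arrays were these 2 and Prtn3, Ctsg, Ms4a3, Camp, Pglyrp1, Fcnb and Trem1. In the AF, CTR replicate 1 and cKO replicate 4 stood apart from the rest of their groups for most of the genes and cKO replicate 3 for 5 of the 6 azurophil genes. The counts of calls and the changes of some single genes are given with and without them, and other changes with all 16 arrays only.

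In the AF, all 30 measured genes had a higher mean in cKO than in CTR, with log2 changes from 0.23 for Cebpe to 5.56 for S100a8 and a median of 2.0, beside -0.03 over all probe sets. A change above 0 was seen for 46.4% of all probe sets. None of the 30 passed the limma test at a Benjamini-Hochberg adjusted p under 0.05, which 0.0135% of all probe sets passed in the higher direction, and the lowest adjusted p was 0.0776, for Ly6c2. An unadjusted p under 0.05 was reached by 24 of the 30, all higher in cKO, against 4.94% of all probe sets. These p-values pool the spread of the AF and NP arrays, and many of the genes varied less in the NP. In a fit of the 8 AF arrays alone, none of the 30 passed and the lowest limma adjusted p was 0.432. The 4 cKO values lay wholly above the 4 CTR values for 1 gene, Srgn, against 1.79% of all probe sets. All of these counts come from the same 8 arrays, and the genes are not replicates of one another.

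The groups overlapped through a few arrays. The mean of the 30 genes was 9.86, 7.38, 6.51 and 7.17 in the 4 AF CTR arrays and 10.12, 10.00, 11.04 and 8.35 in the 4 AF cKO arrays, in replicate order. AF CTR replicate 1 thus lay among the cKO arrays, and AF CTR replicate 3 was the lowest of the 8. AF CTR replicate 1 was the highest control for 27 of 30 genes and lay inside or above the range of the cKO arrays for 29. AF cKO replicate 4 was the lowest cKO array for 26 genes. In the NP the means were narrow and low, at 6.53, 7.08, 6.06 and 6.53 in CTR and 6.92, 7.0, 5.93 and 6.89 in cKO, and the genotypes overlapped.

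Without AF CTR replicate 1, 17 of the 30 genes rose in AF cKO at a limma adjusted p under 0.05, against 0.446% of all probe sets. They were Mpo, Camp, Ltf, Ngp, Chil3, Cd177, Hp, Mmp8, Retnlg, Csf3r, S100a8, S100a9, Ncf1, Ncf4, Cybb, Ly6c2 and Lyz2. Without AF cKO replicate 4, 9 genes passed (Camp, Ltf, Pglyrp1, Mmp8, Retnlg, S100a9, Ncf1, Ncf4 and Ly6c2), against 0.36% of all probe sets. Leaving out any other 1 of the 16 arrays gave no call. Both arrays were singled out by the values of these same genes, and omitting a high control or a low cKO array raises a change by construction. The calls without them, here and for single genes below, are therefore no independent evidence of a change. The median change stayed between 1.51, without AF cKO replicate 3, and 2.58, without AF CTR replicate 1.

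**Figure D1:**
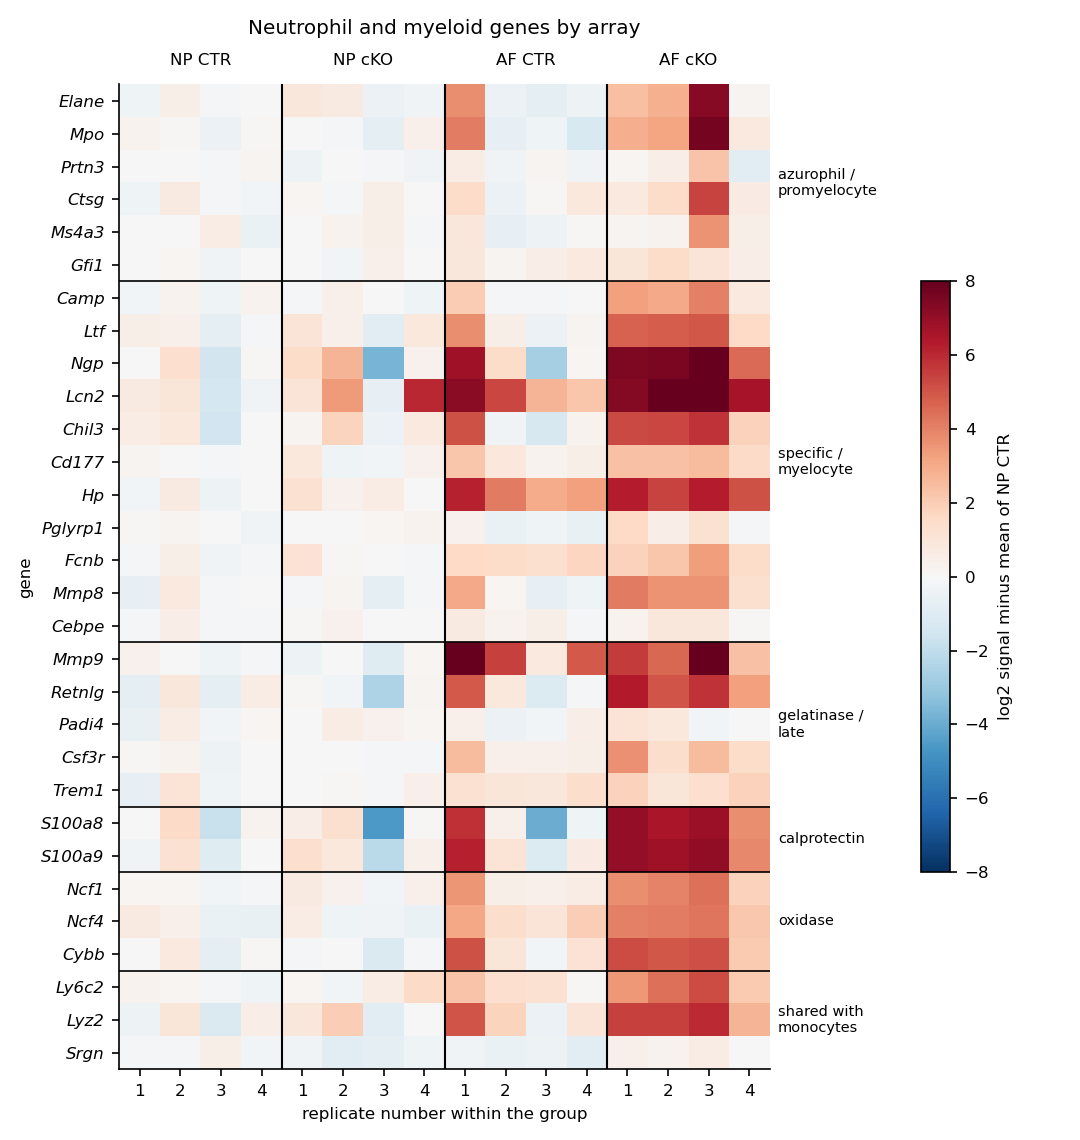
Heat map of the 30 measured genes (rows, grouped by stage) on the 16 arrays (columns, with the replicate number under each), coloured by log2 signal minus the gene's mean over the 4 NP CTR arrays, with values beyond 8 in the end colour. AF cKO replicates 1 to 3 and AF CTR replicate 1 are red for most genes, AF cKO replicate 4 is paler, and Elane, Mpo, Ctsg and Ms4a3 are deepest in AF cKO replicate 3.

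Azurophil granule and promyelocyte genes were high on 1 array above all. The mean of the 6 genes was 7.77, 5.43, 5.72 and 5.79 in the 4 AF CTR arrays and 7.05, 7.45, 10.36 and 6.12 in the 4 AF cKO arrays, in replicate order. In the NP it stayed between 5.72 and 6.04. AF cKO replicate 3 therefore stood about 3 units above its nearest cKO neighbour, and AF CTR replicate 1 above cKO replicates 1, 2 and 4. The median log2 change of the 6 genes in the AF was 1.37, and it was 0.42 without AF cKO replicate 3.

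Elane encodes neutrophil elastase, a serine protease of azurophil granules. Its signals were 10.09, 5.87, 5.6 and 5.96 in AF CTR replicates 1 to 4, 8.75, 9.20, 13.66 and 6.54 in AF cKO replicates 1 to 4, 5.98, 6.82, 6.24 and 6.38 in NP CTR, and 7.25, 7.09, 5.85 and 6.07 in NP cKO. AF CTR replicate 1 lay above 3 of the 4 cKO arrays, and the other 3 AF controls lay within the NP range or just below it. The AF group means were 6.88 ± 2.14 in CTR and 9.54 ± 2.98 in cKO (SD, n = 4), a change of 2.66 (SE 1.08, limma adjusted p = 0.401), or 1.28 (limma adjusted p = 0.707) without AF cKO replicate 3. Mpo encodes myeloperoxidase, the peroxidase of the same granules. Its signals were 11.5, 6.78, 7.09 and 6.17 in AF CTR and 10.33, 10.60, 15.07 and 8.23 in AF cKO, with the NP between 6.68 and 7.83. The order of the arrays was that of Elane except among the lower controls, and the groups again overlapped through AF CTR replicate 1. The change was 3.17 (SE 1.09, limma adjusted p = 0.323), and 4.38 (SE 0.94, limma adjusted p = 0.0379) without AF CTR replicate 1. Without AF cKO replicate 3 it was 1.84 (limma adjusted p = 0.597).

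The 250 bases upstream of Elane and Mpo are shown as examples of azurophil gene starts that held the letters GAGGAAGT, a spelling bound by PU.1 and other ETS factors of myeloid cells. The sequences are from RefSeq on GRCm38.p6, both on the plus strand, at chr10:79886062-79886311 for Elane and chr11:87793534-87793783 for Mpo, with the match in capitals.
Elane: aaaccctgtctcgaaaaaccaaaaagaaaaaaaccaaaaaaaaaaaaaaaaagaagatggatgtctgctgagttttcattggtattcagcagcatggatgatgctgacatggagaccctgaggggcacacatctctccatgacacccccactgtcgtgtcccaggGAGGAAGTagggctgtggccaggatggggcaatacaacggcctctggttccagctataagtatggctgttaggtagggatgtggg
Mpo: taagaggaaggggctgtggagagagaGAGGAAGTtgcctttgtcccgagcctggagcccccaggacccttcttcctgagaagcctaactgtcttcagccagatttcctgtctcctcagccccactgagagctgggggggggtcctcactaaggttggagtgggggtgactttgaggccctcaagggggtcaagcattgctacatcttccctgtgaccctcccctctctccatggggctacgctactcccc
The match lies 85 bases before the annotated start of Elane and 224 bases before that of Mpo. On either strand, GAGGAAGT was found in the upstream window of 3 of the 6 azurophil genes (Elane, Mpo and Prtn3) and in 25.0% of the windows of the listed genes, against 2.44% of 32851 windows of all genes. The match describes letters in the sequence and shows no binding.

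The other azurophil genes had the same high array, on lower signals. Ctsg, the granule protease cathepsin G, was 5.75, 3.76, 4.38 and 5.10 in AF CTR and 5.05, 5.72, 9.68 and 4.89 in AF cKO, and AF cKO replicate 3 was the only one of the 16 arrays above background. Its change was 1.59 (SE 0.72, limma adjusted p = 0.448), or 0.47 (limma adjusted p = 0.777) without that array. Prtn3, proteinase 3 of the same granules, and Ms4a3, a membrane protein of promyelocytes, were also above background on that array alone, at 8.26 and 8.77. The change of Prtn3 was 0.47 (SE 0.42), and without AF cKO replicate 3 it was -0.12. That of Ms4a3 was 1.15 (SE 0.54), and it ran from 0.34 to 1.91 over the other settings tried. Gfi1, a transcriptional repressor needed for neutrophil formation, differed from the rest: it was 6.61, 5.90, 6.25 and 6.50 in AF CTR and 6.65, 7.17, 6.71 and 6.24 in AF cKO. AF cKO replicate 3 was 0.20 lower than the mean of cKO replicates 1 and 2 for Gfi1, whereas it was 1.95 to 4.68 higher for the other 5 genes.

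Specific granule and myelocyte genes were high on 3 of the 4 cKO arrays alike. The mean of the 11 genes was 9.63, 7.31, 6.29 and 6.75 in the 4 AF CTR arrays and 10.15, 10.13, 10.61 and 8.34 in the 4 AF cKO arrays, in replicate order. In the NP it ran from 5.48 to 6.95. The median AF change was 2.33, and 10 of the 11 genes had an unadjusted p under 0.05, all but Cebpe. AF cKO replicate 3 exceeded the mean of cKO replicates 1 and 2 by a median of 0.41 for these genes, beside 3.80 for the azurophil genes, and by more than 1 for Fcnb alone.

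**Figure D2:**
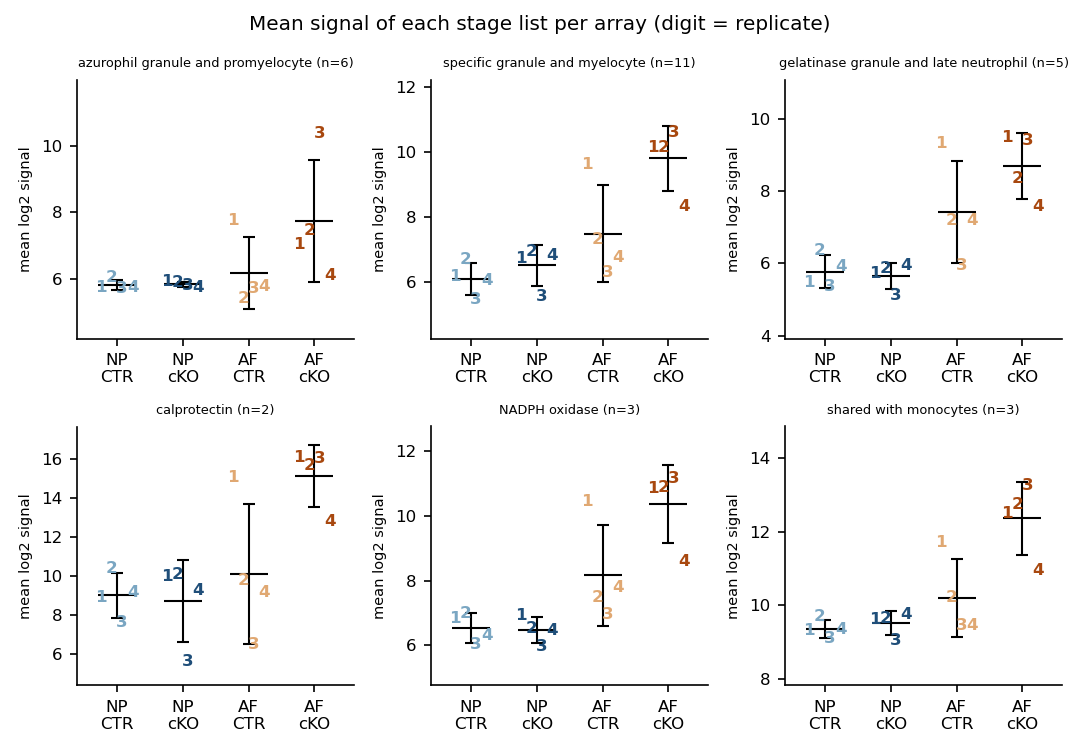
Mean log2 signal (y axis) of each stage group on every array, drawn as the replicate number, for the 4 groups (x axis), with bars for the mean and SD of 4 arrays. In the AF cKO, replicate 3 stands at 10.36 for the azurophil genes while replicates 1, 2 and 3 lie together for the specific granule genes (10.15, 10.13 and 10.61), and AF CTR replicate 1 lies near the cKO arrays in each panel.

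Camp encodes cathelicidin, an antimicrobial peptide of specific granules. Its signals were 6.52, 4.44, 4.37 and 4.55 in AF CTR and 7.82, 7.55, 8.56 and 5.29 in AF cKO, with the NP between 4.15 and 4.95. Only AF cKO replicates 1 to 3 were above background, and the groups overlapped because AF cKO replicate 4 fell below AF CTR replicate 1. The change was 2.33 (SE 0.53, limma adjusted p = 0.125), 2.85 (adjusted p = 0.0104) without AF CTR replicate 1 and 3.00 (adjusted p = 0.00289) without AF cKO replicate 4. Ltf encodes lactoferrin, the iron-binding protein that defines specific granules. It was 9.03, 5.82, 4.89 and 5.55 in AF CTR, and 10.06, 10.15, 10.27 and 6.94 in AF cKO, with the NP between 4.50 and 6.37. AF cKO replicates 1 to 3 were close together, and AF CTR replicate 1 lay between them and AF cKO replicate 4. The change was 3.03 (SE 0.77, limma adjusted p = 0.171), and 3.94 (adjusted p = 0.00659) without AF CTR replicate 1.

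Mmp8, neutrophil collagenase, was 9.83, 7.0, 6.16 and 6.48 in AF CTR and 10.96, 10.44, 10.40 and 8.14 in AF cKO, and lay between 6.08 and 7.61 in the NP. Its change was 2.62 (SE 0.65, limma adjusted p = 0.159). Ngp, a cathelin-related granule protein, is given because its upstream sequence is shown, and was chosen after its values were seen. It was 16.03, 10.67, 6.56 and 9.37 in AF CTR, 16.66, 16.73, 17.33 and 13.74 in AF cKO, 9.27, 10.56, 7.74 and 9.32 in NP CTR, and 10.69, 11.96, 5.50 and 9.58 in NP cKO. The AF controls ran from background to the level of the cKO arrays. The AF group means were 10.66 ± 3.97 in CTR and 16.11 ± 1.61 in cKO (SD, n = 4). The change was 5.46 (SE 1.5, limma adjusted p = 0.197), and 7.25 (SE 1.21, adjusted p = 0.00924) without AF CTR replicate 1.

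The 250 bases upstream of Ngp and Ltf are shown as examples of specific granule genes whose windows held TTGCNNAA, a loose spelling of the site of C/EBP factors, the family to which the myelocyte regulator C/EBP epsilon belongs. They are RefSeq sequences on GRCm38.p6, plus strand, at chr9:110419558-110419807 for Ngp and chr9:111019042-111019291 for Ltf, with matches on either strand in capitals.
Ngp: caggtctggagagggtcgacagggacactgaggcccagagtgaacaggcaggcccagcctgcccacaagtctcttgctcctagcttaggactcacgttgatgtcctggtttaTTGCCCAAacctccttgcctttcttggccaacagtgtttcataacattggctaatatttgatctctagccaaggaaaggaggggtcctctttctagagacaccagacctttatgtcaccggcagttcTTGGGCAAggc
Ltf: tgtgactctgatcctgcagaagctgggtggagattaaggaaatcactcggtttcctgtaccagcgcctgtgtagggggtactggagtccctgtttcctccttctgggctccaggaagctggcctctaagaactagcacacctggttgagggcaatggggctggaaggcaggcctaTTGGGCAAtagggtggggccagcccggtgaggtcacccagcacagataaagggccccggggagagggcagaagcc
The matches lie 138 and 11 bases before the start of Ngp and 75 bases before that of Ltf. TTGCNNAA was found for 5 of the 10 specific granule genes with a sequence and 1 of the 6 azurophil genes (Gfi1), and in 25.0% of the windows of the listed genes, against 9.56% of all windows. Of 9 spellings searched, with these 2 chosen after the counts were seen, the strict palindrome TTGCGCAA was in none of the windows of the listed genes and in 0.164% of all windows. The same palindrome with A before it and T after it was also in none, against 0.00609%, and TTNNGNAAT in 15.6%, against 10.2%. AGAGGAAGT and GAGGAA, which overlap GAGGAAGT, were in 9.38% and 50.0%, against 0.798% and 23.3%. TATAAA was in 21.9%, against 12.4%, and TGTGGT in 21.9%, against 14.0%. These are descriptions of 32 windows for 29 of the 33 genes.

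Of the remaining specific granule genes, Lcn2 and Hp were the ones with a clear level in control AF. Lcn2, an iron-scavenging lipocalin that cells other than neutrophils also make, was 15.49, 13.63, 10.96 and 10.46 in AF CTR and 15.58, 16.85, 17.18 and 14.85 in AF cKO, a change of 3.48 (SE 1.16, limma adjusted p = 0.300). Hp, the haemoglobin-binding protein haptoglobin, was 12.09, 10.09, 8.91 and 9.25 in AF CTR and 12.24, 11.39, 12.22 and 11.03 in AF cKO, a change of 1.64 (SE 0.51, limma adjusted p = 0.261). For both, AF CTR replicate 1 was within the cKO range. Chil3, a chitinase-like protein, had a change of 3.61 (SE 1.05), and Cd177, a neutrophil surface protein, 1.26 (SE 0.36). Pglyrp1, a peptidoglycan-binding protein, had a change of 1.09 (SE 0.30), Fcnb, a lectin of the complement system, 0.72 (SE 0.34), and Cebpe, which encodes C/EBP epsilon, 0.23 (SE 0.24) at background signals. The near-identical Chil4 had a change of 2.07 (SE 0.67, limma adjusted p = 0.289), so signal of Chil3 and Chil4 may not be fully separated.

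Gelatinase granule and late neutrophil genes differed among themselves. The mean of the 5 genes was 9.33, 7.2, 5.93 and 7.2 in AF CTR and 9.48, 8.35, 9.41 and 7.57 in AF cKO, with a median change of 0.40. Mmp9 encodes gelatinase B, which osteoclasts make too. It was 13.57, 10.33, 5.66 and 9.78 in AF CTR and 10.48, 9.47, 13.57 and 7.21 in AF cKO, and between 3.93 and 5.23 in the NP. The highest control equalled the highest cKO array, and the cKO values lay within the range of the controls. AF CTR replicate 3 lay below every cKO array. Its change of 0.35 (SE 1.21, limma adjusted p = 0.943) was -0.78 without AF cKO replicate 3 and -1.04 without AF CTR replicate 3.

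Retnlg, a resistin-like protein of mature neutrophils, behaved like the specific granule genes. It was 12.89, 8.81, 6.87 and 7.83 in AF CTR and 14.33, 13.02, 13.77 and 11.23 in AF cKO, with the NP between 5.52 and 8.87. Only AF CTR replicate 1 reached into the cKO range, and the change was 3.99 (SE 0.96, limma adjusted p = 0.147), or 5.25 (SE 0.70, adjusted p = 0.00186) without that array. Csf3r, the receptor for granulocyte colony-stimulating factor, was 8.79, 6.66, 6.66 and 6.74 in AF CTR and 9.92, 7.65, 8.81 and 7.73 in AF cKO. Its change was 1.32 (SE 0.46, limma adjusted p = 0.329), and 1.84 (adjusted p = 0.0306) without AF CTR replicate 1. Trem1, a receptor that amplifies inflammatory signals, was 6.43, 6.13, 6.10 and 6.57 in AF CTR and 7.02, 6.18, 6.56 and 7.04 in AF cKO, close to background throughout, with a change of 0.40 (SE 0.30). Padi4, the histone-citrullinating enzyme of neutrophil extracellular traps, had a change of 0.38 (SE 0.31) at background signals.

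The calprotectin subunits S100a8 and S100a9, calcium-binding proteins abundant in the neutrophil cytosol, had a median change of 5.01, the largest of the 6 groups. S100a8 was 15.21, 9.74, 5.34 and 9.0 in AF CTR, 16.39, 15.89, 16.20 and 13.05 in AF cKO, 9.39, 10.86, 7.53 and 9.60 in NP CTR, and 9.88, 10.59, 4.72 and 9.42 in NP cKO. S100a9 was 14.86, 9.79, 7.6 and 9.33 in AF CTR and 15.72, 15.42, 15.78 and 12.49 in AF cKO, with the NP between 6.50 and 10.03. For both genes AF CTR replicates 2 to 4 lay within the NP range, AF CTR replicate 1 lay above AF cKO replicate 4, and AF cKO replicates 1 to 3 were close together. The AF means were 9.82 ± 4.07 in CTR and 15.38 ± 1.56 in cKO for S100a8, and 10.39 ± 3.12 and 14.85 ± 1.58 for S100a9 (SD, n = 4). The changes were 5.56 (SE 1.51, limma adjusted p = 0.197) for S100a8 and 4.46 (SE 1.13, limma adjusted p = 0.171) for S100a9. Without AF CTR replicate 1 the change of S100a8 was 7.36 (SE 1.23, limma adjusted p = 0.00924).

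Genes of the NADPH oxidase, the enzyme that makes superoxide in phagocytes, had changes from 1.77 to 2.60. Ncf1, its cytosolic p47phox subunit, was 9.77, 6.68, 6.61 and 6.83 in AF CTR and 9.94, 10.17, 10.65 and 8.07 in AF cKO. Ncf4, the p40phox subunit, was 8.86, 7.17, 6.81 and 7.72 in AF CTR and 9.78, 9.87, 10.04 and 7.94 in AF cKO. Cybb, the membrane-bound catalytic subunit, was 12.73, 8.60, 7.45 and 8.79 in AF CTR and 12.83, 12.62, 12.78 and 9.75 in AF cKO. In each gene AF cKO replicate 4 was the only cKO array below AF CTR replicate 1, except that Cybb in AF cKO replicate 2 lay below it too. The limma adjusted p was 0.171 for Ncf1, 0.186 for Ncf4 and 0.278 for Cybb, and all 3 passed without AF CTR replicate 1.

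Genes shared with monocytes gave the smallest adjusted p and the one separation of groups. Ly6c2, a surface protein of inflammatory monocytes and immature granulocytes, was 9.57, 8.58, 8.46 and 7.35 in AF CTR and 10.74, 11.68, 12.46 and 9.37 in AF cKO. Its groups overlapped narrowly, with AF cKO replicate 4 just under AF CTR replicate 1, and the change was 2.57 (SE 0.53, limma adjusted p = 0.0776). Its near-identical neighbour Ly6c1, which endothelial cells make, had a change of 1.93 (SE 0.61, limma adjusted p = 0.275), so signal of the pair may not be fully separated. Lyz2, lysozyme of granulocytes and macrophages, was 13.34, 10.10, 7.85 and 9.36 in AF CTR and 13.82, 13.78, 14.30 and 11.07 in AF cKO, a change of 3.08 (SE 0.90, limma adjusted p = 0.236). Its near-identical copy Lyz1 had a change of 0.50 (SE 0.35, limma adjusted p = 0.625).

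Srgn encodes serglycin, the proteoglycan core that holds granule proteins, and many cell types make it. It was 12.21, 11.93, 12.07 and 11.60 in AF CTR, 12.92, 12.76, 13.06 and 12.43 in AF cKO, 12.40, 12.32, 12.95 and 12.28 in NP CTR, and 12.20, 11.63, 11.75 and 12.13 in NP cKO. In the AF every cKO array lay above every control, and in the NP every cKO array lay below every control. The AF means were 11.95 ± 0.26 in CTR and 12.79 ± 0.27 in cKO (SD, n = 4). The change was 0.84 (SE 0.22, limma adjusted p = 0.172) in the AF and -0.56 (SE 0.22, limma adjusted p = 0.886) in the NP. The difference of these changes was 1.40 (SE 0.31, limma adjusted p = 0.667).

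**Figure D3:**
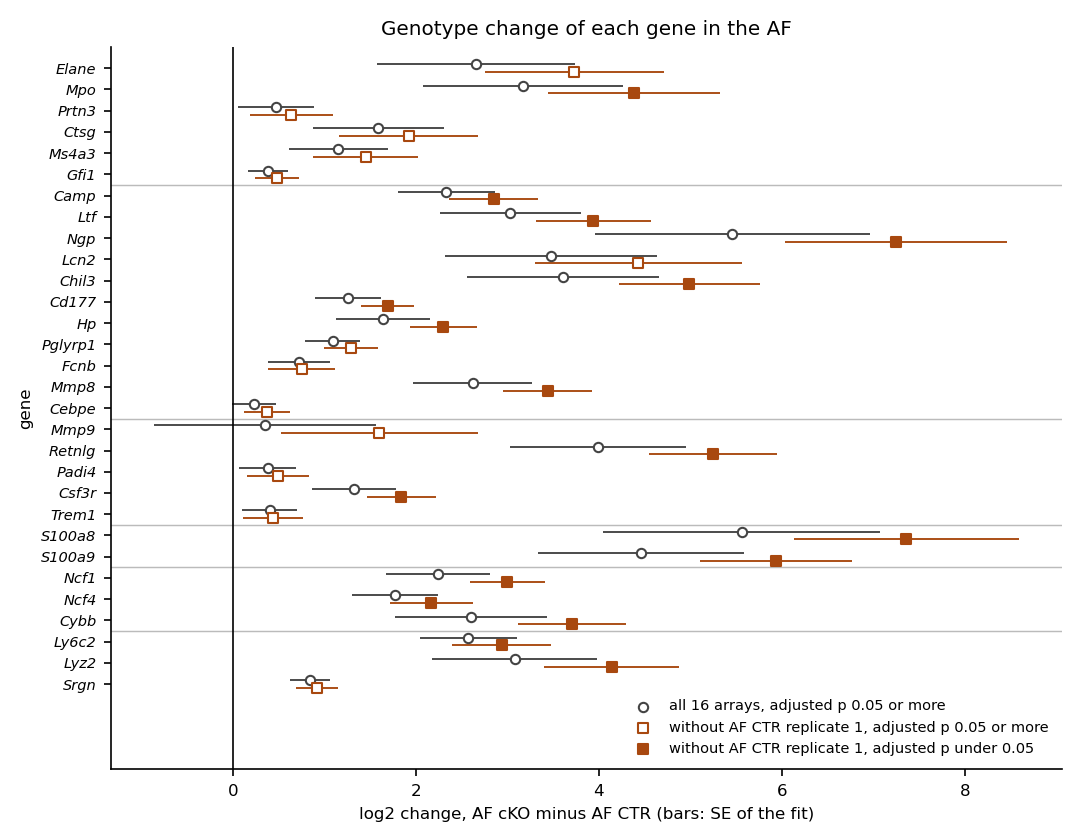
Log2 change from AF CTR to AF cKO (x axis, bars are the SE of the limma fit) for each of the 30 genes (y axis, grouped by stage) with all 16 arrays and without AF CTR replicate 1. All 30 points lie above 0 in both fits, and filled squares mark the 17 genes that pass an adjusted p under 0.05 once that array is left out, with none filled for all 16 arrays. The array left out was singled out by the values of these same genes.

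In the NP the same genes showed no shift common to all stage groups. Of the 30, 20 had a higher and 10 a lower mean in cKO, with a median of 0.11 and a range from -0.69 for S100a8 to 2.46 for Lcn2. Higher means were found for 10 of 11 specific granule genes (median 0.21) and 4 of 6 azurophil genes (0.07). They were found for 2 of 5 gelatinase genes (-0.06), 1 of 2 calprotectin (-0.29), 1 of 3 oxidase (-0.14) and 2 of 3 shared with monocytes (0.50). A change above 0 was seen for 50.0% of all probe sets. None passed the limma test at an adjusted p under 0.05, against 0.122% of all probe sets. Lcn2 was the only gene with an unadjusted p under 0.05 in the higher direction (1.78% of all probe sets) and Srgn the only one in the lower (2.81%). Lcn2 was 8.98, 9.22, 6.83 and 7.99 in NP CTR and 9.29, 11.66, 7.63 and 14.30 in NP cKO, so cKO replicates 2 and 4 lay clear above the controls and replicates 1 and 3 within or just above their range (SE of the change 1.16, limma adjusted p = 1.0). Groups that did not overlap were found for Srgn, lower in cKO, against 1.82% of all probe sets. The NP arrays also varied together: NP cKO replicate 3 was the lowest of the 8 NP arrays for 11 genes, with S100a8 at 4.72 and Ngp at 5.50, and NP CTR replicate 3 for 8 genes.

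Set side by side, the AF and NP changes were 5.46 and 0.21 for Ngp, 5.56 and -0.69 for S100a8, 3.99 and -0.59 for Retnlg, 3.17 and -0.10 for Mpo, and 3.48 and 2.46 for Lcn2. The test of the difference of the changes, which uses the same arrays as each change, was above 0 for all 30 genes, against 48.4% of all probe sets, with a median of 1.70. It was called for none of the 30 and for 0.0% of all probe sets, and 16 genes had an unadjusted p under 0.05, all with the larger change in the AF, against 3.17% of all probe sets. The lowest limma adjusted p was 0.667. A larger change in the AF than in the NP was therefore not shown for any single gene.

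The comparison of AF with NP within the control mice gave the level of these genes without Cre. Of the 30, 6 were higher in AF at a limma adjusted p under 0.05, against 10.1% of all probe sets: Lcn2 by 4.38 (SE 1.16), Hp by 4.13 (SE 0.51), Mmp9 by 4.95 (SE 1.21), Ncf4 by 1.87 (SE 0.47), Fcnb by 1.5 (SE 0.34) and Trem1 by 1.12 (SE 0.30). The adjusted p ran from 1.3e-05 for Hp to 0.0126 for Trem1. Fcnb and Trem1 lay at or under background on 14 of 16 arrays each, and Trem1 was not called without NP CTR replicate 1 (adjusted p = 0.0525). Groups did not overlap for 9 genes in the higher direction, against 11.2% of all probe sets. The median difference over the 30 genes was 0.96, with 27 above 0 against 47.2% of all probe sets, and it was 0.17 without AF CTR replicate 1, with 17 of 30 above 0. Azurophil genes had no call here and a median of 0.48.

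In the cKO mice, 25 of the 30 genes were higher in AF than in NP at a limma adjusted p under 0.05, against 12.6% of all probe sets, with a median of 3.23. Groups did not overlap for 24 of the 30, against 12.5%. The genes not called were Prtn3, Ms4a3, Pglyrp1, Cebpe and Padi4. The differences were 6.73 (SE 1.51, adjusted p = 0.00355) for S100a8, 6.68 (SE 1.5, adjusted p = 0.00348) for Ngp, 5.70 (SE 0.96, adjusted p = 0.000372) for Retnlg and 3.66 (SE 0.77, adjusted p = 0.00219) for Ltf. The azurophil calls were the least firm: Elane (2.97, adjusted p = 0.0490) lost its call in 18 of 27 other settings, Ctsg (1.98, adjusted p = 0.0495) in 15 of 26, and Mpo (3.74, adjusted p = 0.0177) without AF cKO replicate 3 (adjusted p = 0.0622). The other 22 genes kept their calls in every setting in which they were tested. Since NP and AF of a mouse also differ in tissue makeup, these differences do not isolate the genotype.

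Other genes of the neutrophil programme, from a list drawn up with earlier results of these data known, had a smaller median change. Of 43 listed, 39 were measured, and 37 had a higher and 2 a lower mean in AF cKO, with a median of 0.68, no call and 23 at an unadjusted p under 0.05, all higher, against 4.94% of all probe sets. The integrin subunits Itgam and Itgb2, which together form the adhesion receptor Mac-1, had changes of 2.23 (SE 0.57, limma adjusted p = 0.171) and 1.83 (SE 0.48, limma adjusted p = 0.175). Itgam was 8.81, 6.06, 5.72 and 6.56 in AF CTR and 9.30, 9.41, 10.00 and 7.37 in AF cKO, highest on cKO replicates 1 to 3 and, among controls, on replicate 1, like the specific granule mean. Anxa1, an anti-inflammatory annexin made by many cells, had a change of 0.91 (SE 0.24, limma adjusted p = 0.174) and 0.60 (SE 0.24, limma adjusted p = 0.887) in the NP.

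Transcription factors and progenitor genes of granulocytes had 17 of 18 genes measured, with 12 higher, 5 lower, a median of 0.17, no call and 5 at an unadjusted p under 0.05, all higher, against the same 4.94%. Myb, a factor of cycling progenitors, was 6.18, 4.74, 4.97 and 4.99 in AF CTR and 6.32, 5.97, 9.13 and 5.25 in AF cKO, so that only AF cKO replicate 3 was above background, as for Ctsg and Prtn3. Its change was 1.45 (SE 0.55, limma adjusted p = 0.372). Csf1r, the receptor of monocytes and macrophages, had a change of 0.77 (SE 0.31) and Cebpa, the factor that starts granulocyte development, 0.43 (SE 0.18). Of 24 factors that attract or mobilise neutrophils, all measured, 10 were higher and 14 lower, with a median of -0.03, and no call. At an unadjusted p under 0.05, 2 were higher, against 4.94% of all probe sets, and 1 lower, against 5.69%. The receptor of complement C5a, C5ar1, had a change of 0.52 (SE 0.16, limma adjusted p = 0.259) at background signals, the cytokine gene Il6 -1.31 (SE 0.44, limma adjusted p = 0.302), and Csf1, a growth factor of macrophages, 0.94 (SE 0.37, limma adjusted p = 0.380).

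Markers of bone, marrow and other cells differed between the same AF arrays. The mean of 9 osteoblast and bone markers was 12.50, 12.11, 10.06 and 10.88 in the 4 AF CTR arrays and 12.08, 11.40, 14.11 and 10.14 in the 4 AF cKO arrays, in replicate order, and that of 12 osteoclast markers was 8.41, 7.37, 6.24 and 7.16, and 7.15, 7.12, 9.34 and 6.34, in the same order. AF cKO replicate 3, the array with the highest azurophil signals, was the highest for both lists, AF CTR replicate 1 was second, and AF CTR replicate 3 and AF cKO replicate 4 were the lowest pair. Bglap, the bone protein osteocalcin, was 16.20 on AF cKO replicate 3 and between 7.97 and 12.31 on the other AF arrays, and none of the 9 bone markers lay at background throughout either AF group. In the NP the means of the bone list stayed between 6.01 and 6.35. The bone list had 7 higher and 2 lower members, a median change of 0.21 and no member with an unadjusted p under 0.05. The osteoclast list had 9 higher and 3 lower, a median of 0.12 and likewise none. The part of bone or marrow in the array differences was not tested.

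Erythroid markers, from red cell precursors of the marrow, had means of 7.11, 6.18, 6.29 and 6.86 in AF CTR and 7.72, 7.30, 8.58 and 6.49 in AF cKO, over 10 of 17 genes measured. Their median change was 0.98, with 9 higher, 1 lower, no call and 6 at an unadjusted p under 0.05, all higher, against 4.94% of all probe sets. Proliferation genes had means of 7.72, 6.79, 6.87 and 6.62 in AF CTR and 7.58, 8.16, 8.70 and 6.89 in AF cKO, over 17 genes, with a median change of 0.72, 16 higher, 1 lower, no call and 7 at that unadjusted p, all higher, against the same 4.94%. Skeletal muscle markers followed another order, at 6.31, 6.56, 7.2 and 6.26 in AF CTR and 6.8, 9.95, 6.31 and 9.40 in AF cKO, over 16 genes, with a median change of 1.40, no call and 11 at that unadjusted p, all higher, against the same 4.94%. They were highest on AF cKO replicates 2 and 4, without which 3 of the 30 genes were called (Camp, Pglyrp1 and Ly6c2), against 0.0946% of all probe sets. Without the 2 arrays highest for the bone lists (CTR replicate 1 and cKO replicate 3), 15 were called, against 0.342%, and the azurophil median was 0.73. Each pair held an array singled out above by the values of these same genes. Omitting CTR replicate 1 alone gave 17 calls and cKO replicate 4 alone 9, while omitting cKO replicate 2 or 3 alone gave none. The counts without a pair are thus no independent evidence of a change, and the part of muscle or bone in them was not tested.

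**Figure D4:**
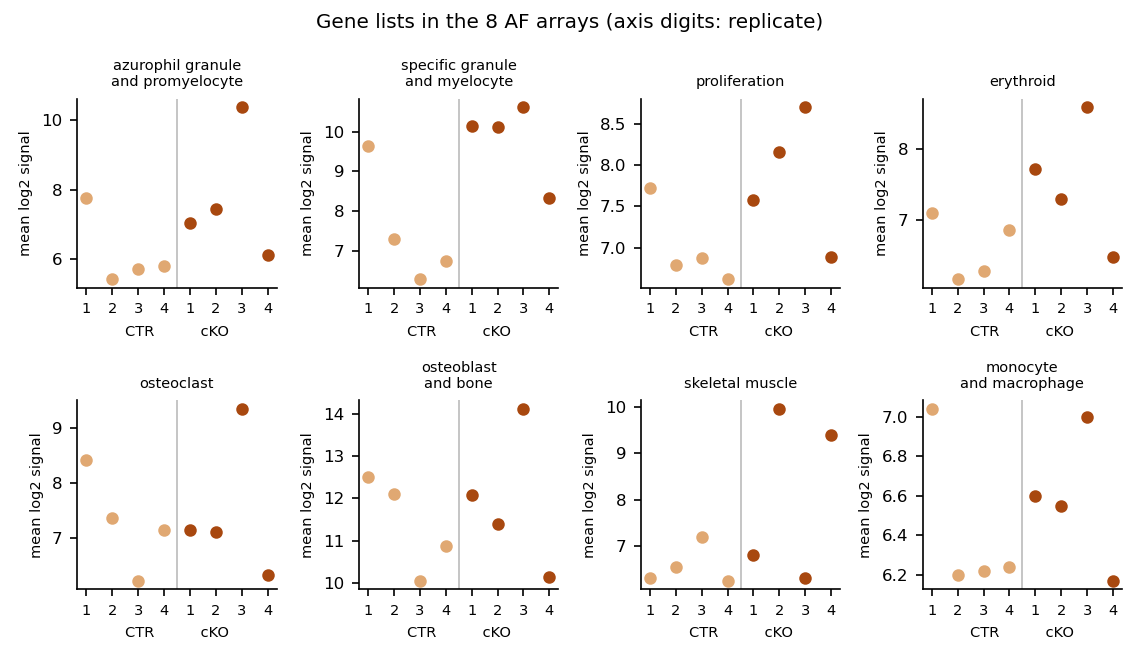
Mean log2 signal (y axis, scaled to each panel and not starting at 0) of 8 gene lists on the 8 AF arrays (x axis, replicates 1 to 4 of CTR and then of cKO). AF cKO replicate 3 is the highest array for the azurophil (10.36), proliferation (8.70), erythroid (8.58), osteoclast (9.34) and bone (14.11) lists, while the muscle list is highest on AF cKO replicates 2 (9.95) and 4 (9.40).

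The remaining marker lists were set against the same AF arrays, with no call in the limma test except 1 cartilage gene. Monocyte and macrophage markers had 13 of 16 measured, a median change of 0.11, 8 higher, 5 lower and 1 at an unadjusted p under 0.05 (higher, against 4.94% of all probe sets), and AF means from 6.2 to 7.04 in CTR and 6.17 to 7.0 in cKO. B lineage markers had a median of 0.00 over 12 genes and T and NK markers -0.18 over 11, with list means between 5.28 and 5.90 on all AF arrays, under background, and no gene at an unadjusted p under 0.05. Megakaryocyte and platelet markers had a median of 0.18 over 8 genes, marrow stroma and fat markers -0.03 over 7, and endothelial markers 0.55 over 12, all 12 higher, with 1, 1 and 3 at an unadjusted p under 0.05. Cartilage and NP markers had a median of -1.51 over 11 genes, with 3 higher and 8 lower, and Acan, the gene that drives the Cre, fell by 2.0 (SE 0.34, limma adjusted p = 0.0218).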

How the data were processed

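RNA of 16 disc tissue samples from 8 mice was turned into biotin-labelled targets (GeneChip WT Plus reagents, per the labels' protocols) for 1-colour arrays. The authors' deposited table holds log2 signals from signal space transformation RMA, per the labels, and Transcriptome Analysis Console is named in the submitters' processing notes. The sources used here give neither its version nor the genome build. The filters named in the labels (detection p under 0.05, p under 0.05, fold of 1.75) had not been applied. Of 28846 rows, 6640 controls were left out, and 22206 probe sets entered a limma fit (version 3.58.1, R 4.3.3) with 1 mean for each of the 4 groups, with Benjamini-Hochberg adjustment over all. A call is an adjusted p under 0.05. In simulated data for the AF comparison on 22206 probe sets, 39% of changes of log2 size 1 and 98% of size 2 were recovered, with 7 false calls among 144. Recovery for the listed genes, at their own spread in the AF, was not tested. The SE of the AF change was 1.08 for Elane, 1.5 for Ngp and 1.51 for S100a8.

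The genes, their stage groups, the other lists and the tests were chosen with earlier results of these data known. Genes named with values per array are the first of each stage group and the 3 with the smallest AF p per group, and up to 3 per other list. Gfi1, Ngp, Lcn2, Hp and the genes compared across tissues were added after their values were seen. The number of arrays limits the precision. In the main fit, p-values rest on a spread within groups that is pooled over all 16 arrays. The AF p-values thus also draw on the spread in the NP, and the NP and AF arrays of a mouse were counted as independent. For genes that varied more in the AF, the pooled spread is smaller than that of the AF arrays and larger than that of the NP arrays. Elane, for example, had an SD of 0.35 in NP CTR, 0.71 in NP cKO, 2.14 in AF CTR and 2.98 in AF cKO. Arrays of the NP and of the AF that share a title code were taken as 1 animal. Their deviations from group means correlated with r from -0.293 to 0.348, and the animal was tried as a random block (correlation 0.0353). Alternatives were other centring, normalization, filters, moderation, array weights, blocks, the labels' thresholds and leaving out arrays. The upstream windows are those RefSeq gives for GRCm38.p6.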

Additional observations from a re-analysis of the deposited data

Results flagged for a closer look

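Within groups of 4 arrays, 1 value lay far from the other 3 in 17 of 120 groups tested. The 120 groups are 30 genes that vary together on the same 16 arrays. The count therefore cannot be set against the rate of about 1 in 20 for independent groups. Of the 17, 4 were AF CTR replicate 1, high for Elane (10.09), Camp (6.52), Csf3r (8.79) and Ncf1 (9.77). AF cKO replicate 4 was low for Ltf (6.94), Chil3 (8.75), S100a8 (13.05), S100a9 (12.49), Ncf4 (7.94), Cybb (9.75) and Lyz2 (11.07), and AF cKO replicate 3 was high for Ms4a3 (8.77). In the NP, replicate 2 of CTR was high for Ctsg (4.95) and Cebpe (4.61), replicate 1 of cKO was high for Fcnb (5.68), and replicate 3 of cKO was low for Retnlg (5.52) and Cybb (6.46), all of them under the background level of 6.59.

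The changes of Srgn had opposite signs in the tissues, with no overlap of groups in either, and the difference of its changes was 1.40 on the log2 scale (SE 0.31). The unadjusted limma p of that difference was 0.000223 and the adjusted p 0.667, so it did not pass over all probe sets.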

How the results depend on the processing

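The AF genotype comparison called 22 probe sets and none of the 30 genes. With each array left out in turn the probe set count ran from 12 to 142 and the gene count from 0 to 17, with the highest on omission of CTR replicate 1 and 9 on omission of cKO replicate 4. The probe set counts were 8 with the 8 AF arrays alone, 37 with a second quantile normalization, 34 without AF cKO replicates 2 and 4, and 112 without AF CTR replicate 1 and AF cKO replicate 3. The gene counts were 1 with array weights (Ly6c2), 3 without AF cKO replicates 2 and 4, and 15 without AF CTR replicate 1 and AF cKO replicate 3. Under the thresholds of the labels, 774 probe sets and 23 genes passed in the AF, 262 and 1 in the NP, 977 and 16 for the difference of the changes, and 3632 probe sets and 10 genes for AF against NP in controls. With each array left out, Prtn3 ran from -0.12 (without AF cKO replicate 3) to 0.93, and Mmp9 from -1.04 (without AF CTR replicate 3), with -0.78 without AF cKO replicate 3, to 1.6. Leaving out arrays in turn gave 10 to 31 probe sets in the NP and 0 to 3 for the difference, which had 1 with a second quantile normalization, 1 without AF cKO replicates 2 and 4, and 1 without AF CTR replicate 1 and AF cKO replicate 3. AF against NP gave 5 to 8 genes in controls, and in cKO 22 to 27 genes and 4074 to 5939 probe sets, with 3698 probe sets after a filter on dim probe sets and 3800 without AF cKO replicates 2 and 4. For counts moved by fewer arrays or probe sets that construction is the known difference, and for the rest the cause was not tested.

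Median changes with each array left out ran from 1.51 to 2.58 in the AF, 0.01 to 0.23 in the NP, 1.30 to 2.18 for the difference, 0.17 to 1.21 for AF against NP in controls, and 2.61 to 3.90 in cKO. The filter on dim probe sets kept 21 of the 30 genes. With the animal as a random replicate block the AF comparison called 22 probe sets, and with the number as a fixed block 20, with none of the 30 genes in either. The number block added Cd177 to the control tissue comparison, for 7 genes. CTR and cKO arrays of 1 number correlated from -0.275 to 0.208 in their deviations. The arrays taken as 1 animal correlated about as weakly, so these values cannot tell whether the numbers pair the mice. A mean over the probe sets of a gene could not be tried, since each gene had 1 probe set, and the fit on 8 arrays gives no difference between tissues.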

Other observations

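Granule genes of eosinophils, another granulocyte type, had the array order of the neutrophil specific granule genes in the AF. Prg2, major basic protein, was 10.22, 7.24, 6.01 and 6.2 in AF CTR and 11.59, 11.09, 11.86 and 8.79 in AF cKO, a change of 3.42 (SE 0.77, limma adjusted p = 0.117). Ear6, an eosinophil-associated ribonuclease, had a change of 3.40 (SE 0.86, limma adjusted p = 0.168), and Epx, eosinophil peroxidase, 2.44 (SE 0.63, limma adjusted p = 0.171). All 3 were highest on AF cKO replicate 3, and AF CTR replicate 1 was the highest control. Over the 14 measured markers of eosinophils, basophils and mast cells the median change was 0.05, with 9 higher, 5 lower, no call and 3 at an unadjusted p under 0.05, all higher, against 4.94% of all probe sets.

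The platelet gene Ppbp was 10.41 on AF cKO replicate 3 and between 4.05 and 5.52 on the other 7 AF arrays, with a change of 1.49 (SE 0.83, limma adjusted p = 0.534). Over the 8 measured megakaryocyte and platelet markers the median change was 0.18, with 6 higher and 2 lower. Treml1, 1 of the 2 lower, had a change of -0.56 (SE 0.27, limma adjusted p = 0.47) and was 5.84 on AF cKO replicate 3. The red cell genes Slc4a1 and Alas2 had changes of 1.46 (SE 0.45, limma adjusted p = 0.257) and 1.46 (SE 0.47, limma adjusted p = 0.278), each highest on AF cKO replicate 3. Car1, the erythroid marker with the smallest AF p, had a change of 1.71 (SE 0.43, limma adjusted p = 0.168). Among the AF arrays it was also highest on cKO replicate 3. In the NP the change was -0.95 (SE 0.43) for Car1, 0.02 (SE 0.45) for Slc4a1 and 0.13 (SE 0.47) for Alas2.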
